A study of Homo sapiens with 3 samples.

Results

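Metallothioneins are small cysteine-rich proteins that bind zinc and copper through the sulfur atoms of their cysteines, and the human type 1 and type 2 genes lie side by side in a cluster on chromosome 16. Their transcription is driven mainly by MTF1, a zinc finger factor that binds metal response elements in their promoters when free zinc rises, and glucocorticoids and stress signals add to it. In liver and liver-derived cells they are among the main zinc stores and take up cadmium and other toxic metals. The genes described here are the 6 that the array design names MT1E, MT1F, MT1G, MT1H, MT1X and MT2A, of 27274 gene names in all. Members were matched by gene name, with every probe that carries the name, which gave 8 probes because MT1H and MT1X have 2 each.

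In HepG2 cells exposed to etoposide, these 8 probes fell into 2 sets. MT2A, MT1E and 1 probe each of MT1H and MT1X gave a higher signal at 10 μM than in control cells. By the main scaling of the arrays, they were nearer to control at 100 μM. MT1F, MT1G and the other probe of MT1H and of MT1X gave a lower signal at both doses, down to 19.7% of control for MT1G at 100 μM. MT1H and MT1X therefore had a higher or a lower signal at 10 μM depending on the probe read.

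HepG2 is an established human hepatocellular carcinoma line with wild-type p53, grown in RPMI medium with fetal bovine serum. The cells received 0, 10 or 100 μM etoposide, a topoisomerase II poison that causes DNA double-strand breaks, for 30 h, and the study compared a dose chosen for senescence with a dose chosen for apoptosis. Total RNA of each of the 3 conditions was amplified, labeled with Cy3 dye and read on 1 Agilent 1-color array. The labels call the 0 μM cells untreated, whereas the study's comparison names the vehicle DMSO. A single array per condition allows no test and no p-value, and differences between cultures or arrays cannot be told apart from differences between doses. The SD given beside a ratio is the spread between spots of repeated probes of like signal on the same arrays, so it covers neither cultures nor RNA preparations.

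The change in signal of MT1H and MT1X depended on the probe read, so the probe sequences are shown before the values. Whether the sequences account for this was not tested. The MT1H and MT1X probes are called upstream and downstream here after their order along the gene. In both upstream probes, shown whole with the codons for cysteine of 1 open reading frame in capitals, the cysteine-rich coding sequence that defines the family can be read.
MT1H upstream probe: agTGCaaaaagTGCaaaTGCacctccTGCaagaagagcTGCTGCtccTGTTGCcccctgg
MT1X upstream probe: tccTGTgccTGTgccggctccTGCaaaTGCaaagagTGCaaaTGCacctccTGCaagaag
The MT1H upstream probe held 8 cysteine codons among 19 codons and the MT1X upstream probe 7 among 20. The upstream probes shared a run of 26 identical bases, and the MT1H upstream probe shared a run of 27 with the probe of MT1A, a gene outside the 6. The array design lists NM_005947, the transcript of MT1B, as well as NM_005952 for the MT1X upstream probe.

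The downstream probes of MT1H and MT1X had no cysteine codon in their open frame. Neither did the probes of MT1E and MT1B, which gave a higher signal at 10 μM, while the best open frame of MT1F held 2. By edits over the whole probe, the downstream probes were nearest to the MT1F probe. The first 30 bases of each are shown, with capitals where the base differs from MT1F at the same place.
MT1F: tgccaggacaacctttctcccagatgtaaa
MT1X downstream probe: tgccaggacaGcTGtGctcTcagatgtaaa
MT1H downstream probe: tgTcGggacaGccCtGctGTcagatgAaaa
Over the whole probe, MT1F and MT1X downstream differed by 11 edits of 60 bases, MT1F and MT1H downstream by 14, and MT1H downstream and MT1X downstream by 16. MT1F also shared a run of 19 bases with the probe of MT1L and a run of 15 with that of MT1E, both of which belong to the set with a higher signal at 10 μM. In their best overlap with the MT1L probe, of 47 bases, MT1X downstream was 76.6% identical and MT1H downstream 74.5%. The probes of MT1G and MT2A shared no run longer than 10 bases with any other metallothionein probe drawn in the plot of shared sequence, and the first 30 bases of each are given because of the 6 genes they lay lowest and highest.
MT1G: cccgtaaaatctaggattttttgttttttg
MT2A: caaccctgaccgtgaccgtttgctatattc
How much of the signal of a probe came from the transcript of another family member was not tested.

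**Figure D1:**
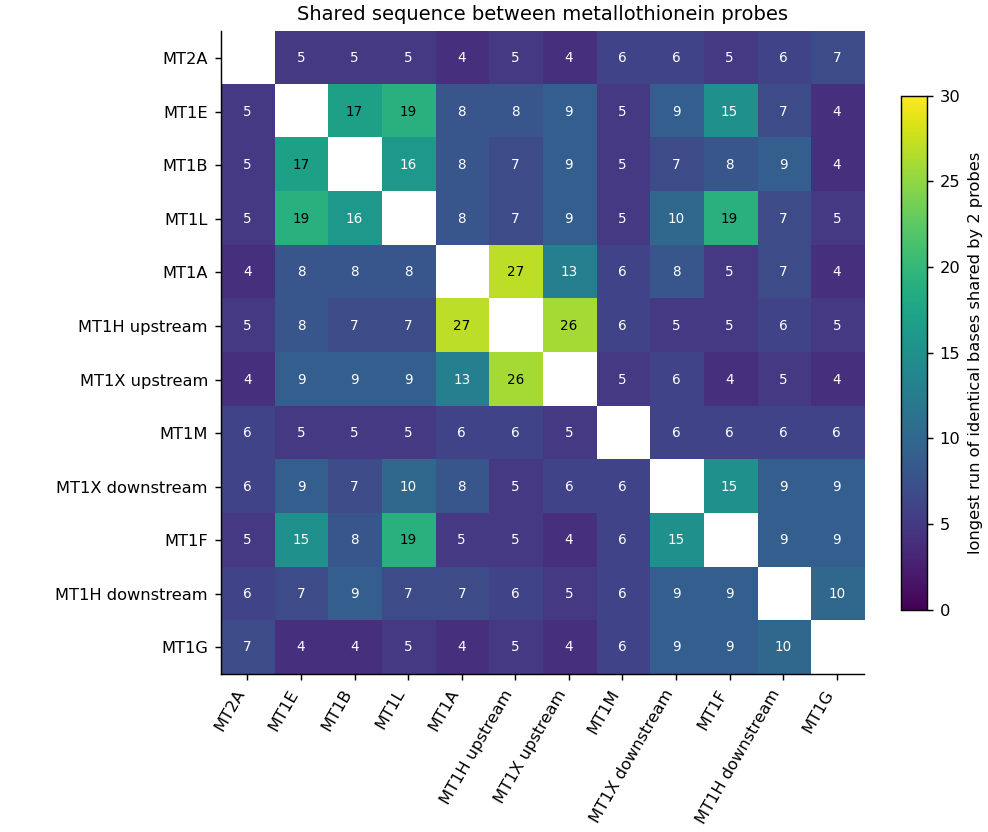
Longest run of identical bases shared by each pair of metallothionein probes named by gene and well above background, with MT1H and MT1X split into the upstream and downstream probe. MT3 and the probes named by transcript are left out, and the diagonal is blank. The brightest cells are MT1H upstream with MT1A (27 bases) and with MT1X upstream (26), while MT1G reaches at most 10 bases, with MT1H downstream.

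The 3 arrays lay on 1 slide and no spot was saturated. Signals are printed as deposited, after background subtraction, and ratios are log2 ratios after each array was set to its 75th percentile, which stood at 514 in control cells, 536 at 10 μM and 432 at 100 μM. All 8 member probes were spotted once, had no outlier spot and passed the software's call of well above background on every array. So did the 9 hepatocyte markers examined, among them ALB, AFP and APOA1. Of 6 markers of other cell types, the fibroblast genes COL1A1 and COL3A1 and the mesenchymal VIM were not well above background on any array. CD68, a lysosomal protein of macrophages, read 173 in control cells, 239 at 10 μM and 409 at 100 μM, and the endothelial PECAM1 read 473, 298 and 286. The leukocyte gene PTPRC read 257, 131 and 288 at 1 probe, while its other 4 probes were not well above background on any array. The part of these markers in the ratios below was not tested.

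MT2A, the type 2 gene that is the major isoform in many human tissues, had the largest ratio of the 6 genes in the direction of a higher signal. Its probe (NM_005953, chromosome 16 of hg18 from 55200833 to 55200892) read 53230 in control cells, 103300 at 10 μM and 62330 at 100 μM. The log2 ratio over control was 0.90 (SD between spots 0.059) at 10 μM, or 186% of control after scaling, and 0.48 (SD 0.059) at 100 μM, or 139%. Both values were far larger than the spread between spots, and 3.3% of the 15178 genes well above background on all 3 arrays lay at least as high at 10 μM, against 20.2% at 100 μM. Over all scalings of the arrays and normexp background correction, the ratio stayed between 0.87 and 0.997 at 10 μM and between 0.19 and 0.54 at 100 μM.

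MT1E, a type 1 gene, moved less. Its probe (NM_175617, from 55218354 to 55218413) read 15940 in control cells, 20900 at 10 μM and 12810 at 100 μM. The log2 ratio was 0.33 (SD 0.062) at 10 μM. At 100 μM it was -0.07 (SD 0.065), no larger than the spread between spots, and it lay between -0.35 and 0.01 across the scalings, so that MT1E had no settled direction at that dose. With median scaling, MT1E lay farther from control at 100 μM (-0.35) than at 10 μM (0.31).

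The upstream probe of MT1H (NM_005951), whose 60 bases span 386 bases of hg18 from 55261949 to 55262334, read 10200 in control cells, 15210 at 10 μM and 9478 at 100 μM. Its log2 ratio was 0.52 (SD 0.063) at 10 μM and 0.14 (SD 0.067) at 100 μM. The upstream probe of MT1X (NM_005952, from 55274583 to 55274642) read 8278, 11820 and 7599 in the same order, with log2 ratios of 0.45 (SD 0.064) and 0.13 (SD 0.066). Both upstream probes were higher at 10 μM under every scaling. At 100 μM their direction depended on the scaling, with a range from -0.15 to 0.21 for MT1H and from -0.16 to 0.19 for MT1X.

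MT1G had the largest change of the 6 genes. Its probe (NM_005950, minus strand, from 55258194 to 55258253) read 1734 in control cells, 592 at 10 μM and 287 at 100 μM, so that each dose lay below the one before. The log2 ratio was -1.61 (SD 0.069) at 10 μM, or 32.7% of control, and -2.34 (SD 0.076) at 100 μM, or 19.7%. Among the 15178 genes, 16 were at least as low at 10 μM (0.105%) and 81 at 100 μM (0.534%), MT1G counted. The ratio stayed past 2-fold under all scalings and under normexp background correction, between -1.63 and -1.53 at 10 μM and between -2.63 and -2.17 at 100 μM.

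MT1F, another type 1 gene, followed the same order with smaller steps. Its probe (NM_005949, from 55250578 to 55250637) read 2164 in control cells, 1194 at 10 μM and 726 at 100 μM. The log2 ratio was -0.92 (SD 0.061) at 10 μM, or 52.9% of control, just short of 2-fold, and -1.33 (SD 0.071) at 100 μM, or 39.9%. At least as low were 1.39% of genes at 10 μM and 1.96% at 100 μM. A stepwise order of control over 10 μM over 100 μM was found in 2987 of the 15178 genes (19.7%), so the order alone was common on these arrays.

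The downstream probe of MT1H (from 55262403 to 55262462), which 68 bases separate from the upstream probe, read 153 in control cells, 53.1 at 10 μM and 29.1 at 100 μM. Its log2 ratio was -1.59 (SD 0.155) at 10 μM and -2.15 (SD 0.242) at 100 μM. The signal at 100 μM was near the lowest signal called well above background on that array, 21.6, and with normexp background correction the ratios shrank to -0.96 and -0.97, which ended the 2-fold call at both doses. The downstream probe of MT1X (from 55275463 to 55275522), 820 bases beyond the end of its upstream probe, read 458.5 in control cells, 237 at 10 μM and 185 at 100 μM. Its log2 ratio was -1.02 (SD 0.086) at 10 μM and -1.06 (SD 0.089) at 100 μM, with ranges from -1.04 to -0.88 and from -1.35 to -0.85 over the scalings and normexp, so it lay at the edge of 2-fold. Between the doses, its log2 ratio of 10 μM over 100 μM was 0.04 (SD 0.094), within the spread between spots, but it ranged from -0.03 to 0.36 over the scalings and normexp, so that the order of the doses was not settled.

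**Figure D2:**
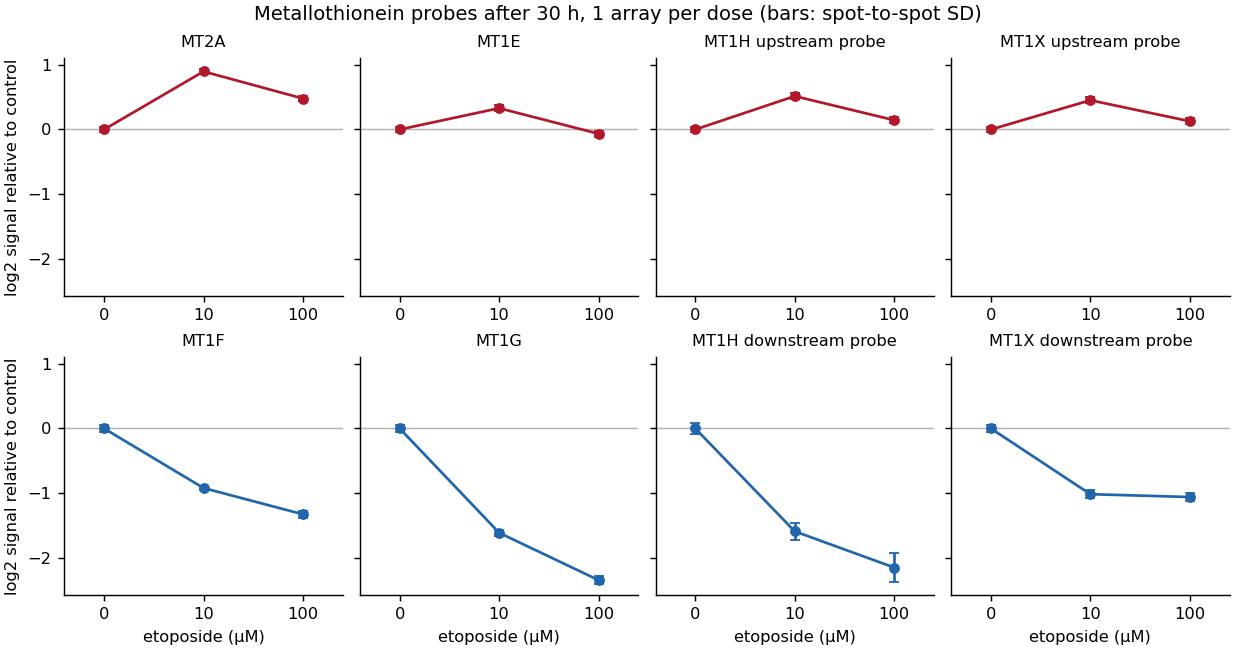
Log2 signal relative to control (y axis, scaled to the 75th percentile) of the 8 metallothionein probes by etoposide dose in μM (x axis, categories), 1 array per dose; points are single arrays and bars the spot-to-spot SD. The upper 4 probes peak at 10 μM, MT2A highest at 0.90, and the lower 4 lie below control at both doses, MT1G lowest at -2.34.

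Within a gene, the 2 probes disagreed by far more than is usual on these arrays. For MT1H the upstream ratio exceeded the downstream ratio by 2.10 on the log2 scale at 10 μM and by 2.29 at 100 μM. Of 3053 genes with at least 2 probes that passed the background call on every array, the ratios of the brightest and the dimmest probe differed as much in 3 at 10 μM (0.0983%) and in 2 at 100 μM (0.0655%), MT1H included. For MT1X the gap was 1.47 at 10 μM, matched by 15 genes (0.491%), and 1.19 at 100 μM, matched by 48 (1.57%). The median gap over all 3053 genes was 0.14 at 10 μM and 0.16 at 100 μM. In the ratio of 10 μM over 100 μM the gaps were -0.19 for MT1H and 0.28 for MT1X, against a median of 0.17. With normexp background correction the gap of MT1H over control shrank to 1.53 at 10 μM and 1.05 at 100 μM, and that of MT1X to 1.28 and 0.92. Between the doses the gap of MT1H took either sign, from -0.59 with quantile normalization to 0.48 with normexp.

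With the brightest probe standing for each gene, 4 of the 6 genes were higher and 2 lower at 10 μM than in control cells. None was past 2-fold higher, where 3.37% of all genes were, and 1 (MT1G) was past 2-fold lower, where 1.6% were. The median log2 ratio of the 6 genes was 0.39, beside -0.03 over all genes well above background on both arrays. At 100 μM, 3 genes were higher and 3 lower, none was past 2-fold higher, where 6.76% of all genes were, and 2 (MT1F and MT1G) were past 2-fold lower, where 3.66% were. The median there was 0.03, beside 0.09 over all genes, and it took either sign across the scalings, from -0.26 to 0.10. The number of genes higher at 100 μM ran from 1 to 4 across the scalings and the number lower from 2 to 5, whereas 4 higher and 2 lower held at 10 μM under each scaling.

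Counting each probe in place of each gene, 3 of the 8 member probes were past 2-fold lower at 10 μM, where 1.56% of all probes were. At 100 μM the count was 4 of 8, where 3.58% of all probes were. These counts were 1 and 2 with normexp background correction, which left MT1G at 10 μM and MT1F and MT1G at 100 μM. Over the scalings alone they ran from 2 to 3 and from 3 to 4. The probes share sequence, so these counts are not counts of separate transcripts. The ratios at both doses rest on the same control array.

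**Figure D3:**
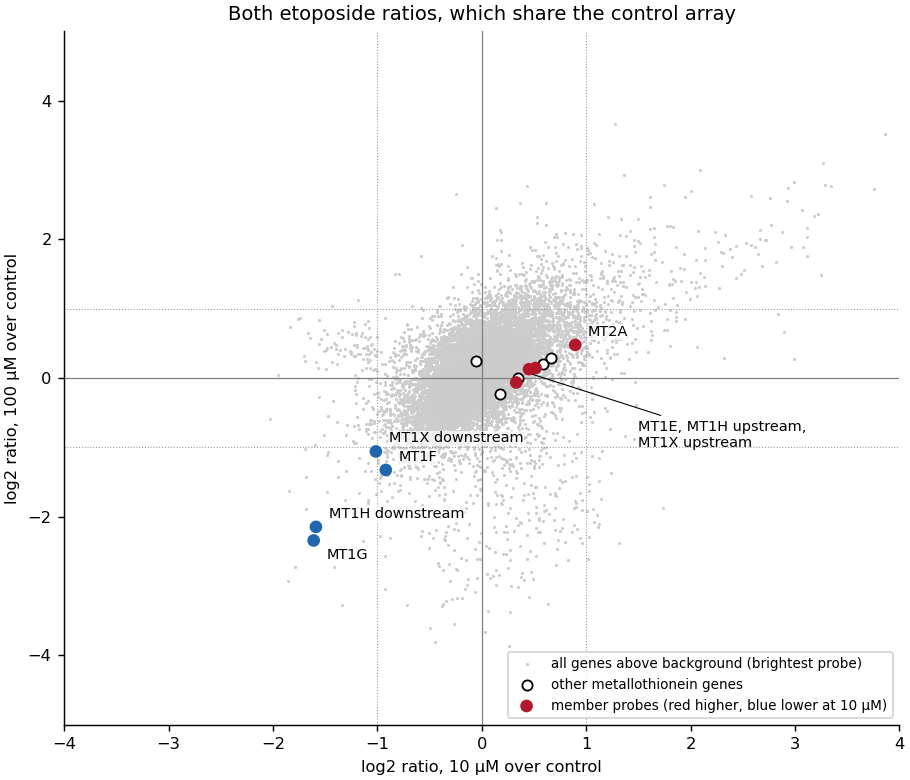
Log2 ratio at 10 μM over control (x axis) against that at 100 μM over control (y axis) for genes well above background on all 3 arrays (grey, brightest probe; 5 genes lie outside the axes), the 8 member probes and 5 other metallothionein genes; dotted lines mark 2-fold, and both axes share the control array. MT1G and MT1H downstream lie at the lower left, whereas MT2A lies at 0.90 and 0.48.

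Between the doses, all 6 genes had a higher signal at 10 μM than at 100 μM by their brightest probe. The log2 ratio of 10 μM over 100 μM was 0.73 (SD 0.075) for MT1G, 0.42 (SD 0.057) for MT2A, 0.41 (SD 0.065) for MT1F, 0.40 (SD 0.063) for MT1E, 0.37 (SD 0.066) for MT1H and 0.33 (SD 0.065) for MT1X. Below MT1G, each gene in this order differed from the next by less than the SD. The median was 0.40, beside -0.10 over all genes. Of the 15178 genes, 4.96% lay at least as high as MT1G, and from 10.9% (MT2A) to 14.3% (MT1X) as high as the others. Also higher at 10 μM than at 100 μM were the 19.7% of genes in stepwise order and the 20.9% highest at 10 μM. The brightest probes of MT1H and MT1X share a run of 26 bases, so the 6 values may not be separate readings. No member was past 2-fold in either direction, where 3.63% of genes were past 2-fold higher and 3.95% past 2-fold lower. Without scaling, MT1G reached 1.04 and passed 2-fold, while the median over all genes moved to 0.22.

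Of 12 other metallothionein names looked for, 8 were on the array and 5 of these were well above background on all 3 arrays. MT1L, which the array design lists as a non-coding transcript (NR_001447), read 17420 in control cells, 28800 at 10 μM and 17830 at 100 μM, with log2 ratios of 0.66 (SD 0.060) and 0.28 (SD 0.061). MT1B read 13490, 21090 and 13100, with log2 ratios of 0.58 (SD 0.065) and 0.21 (SD 0.067). Both were highest at 10 μM, as was MT2A, an order found in 3170 of the 15178 genes (20.9%). MT1A read 23300, 30960 and 19570 (0.35, SD 0.059, and -0.001, SD 0.060), and MT1M read 3760, 4431 and 2708 (0.18, SD 0.061, and -0.22, SD 0.064).

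MT3, the isoform known from brain, read 2065, 2079 and 2060, and its log2 ratios of -0.05 (SD 0.063) at 10 μM and 0.25 (SD 0.067) at 100 μM changed sign with the scaling. At 100 μM the sign also depended on the scaling for MT1A, MT1B and MT1L, and 0 to 4 of the 5 genes were higher. None of the 5 was past 2-fold at either dose, and their medians were 0.35 and 0.21. MT1DP, MT1IP and MT4 were not well above background on any array. A further probe that the array design describes as MT1E but names by transcript (ENST00000330439) read 38.6 in control cells, 66.9 at 10 μM and 65.5 at 100 μM. Its log2 ratios were 0.73 (SD 0.229) and 1.01 (SD 0.232), higher at both doses where the probe named MT1E was near control at 100 μM. This probe was dim, with 19.5 the lowest signal called well above background in control cells. At 100 μM it passed 2-fold by less than the SD. ENST00000379816, which the design describes as a metallothionein and whose probe differs from MT1X upstream by 8 edits of 60 bases, read 473, 697 and 492, with log2 ratios of 0.50 (SD 0.073) and 0.31 (SD 0.074). ENST00000262499, also in the cluster, was not well above background on any array.

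Along hg18, and leaving aside MT3 near 0, the probes with a lower signal at 10 μM began 49.7 kb beyond the MT2A probe, at MT1F, and ended with MT1X downstream at 74.6 kb. The probes of MT1L, MT1E, MT1M, MT1A and MT1B, between 9.25 and 43.6 kb, gave a higher signal at 10 μM. In the stretch from MT1F onward, the upstream probes of MT1H and MT1X gave a higher signal and lay next to downstream probes with a lower one.

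**Figure D4:**
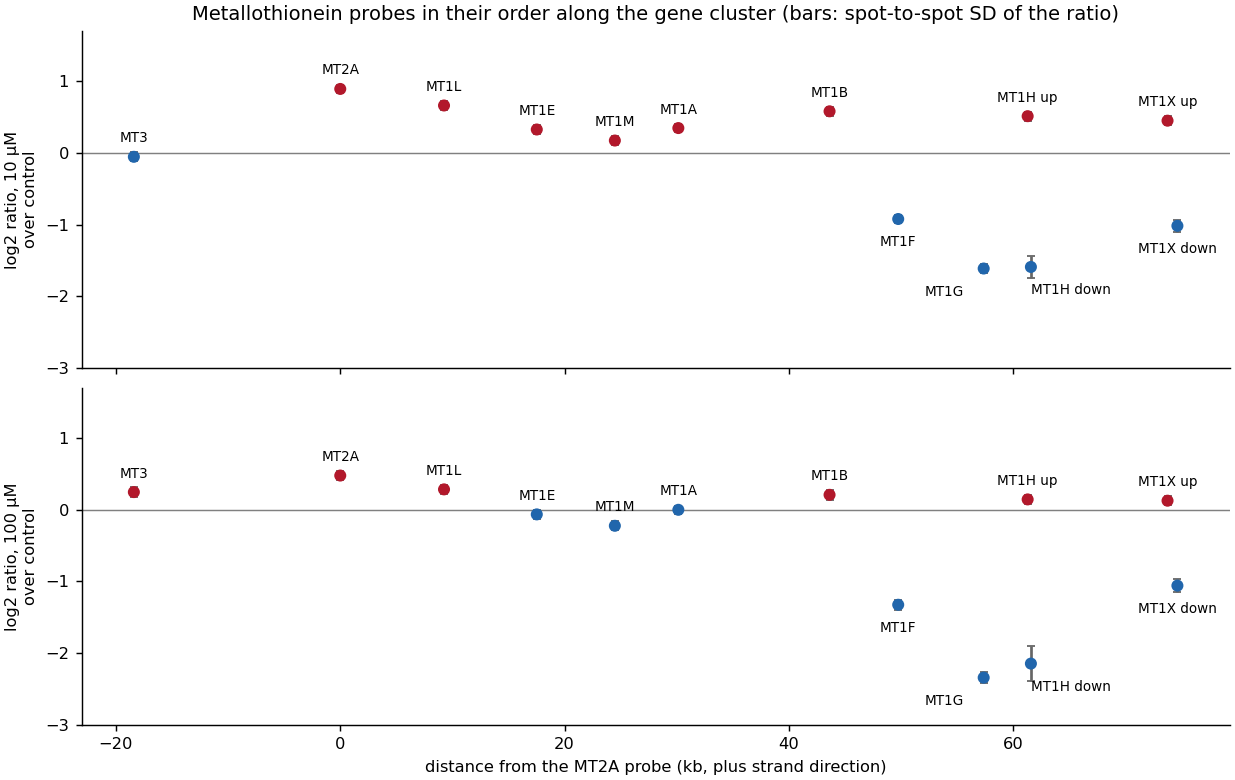
Log2 ratio over control at 10 μM (upper panel) and 100 μM (lower panel) of metallothionein probes named by gene and well above background, by distance in kb from the MT2A probe on the plus strand; bars are the spot-to-spot SD of the ratio, and "up" and "down" mark the upstream and downstream probes. Points above 0 are red and points below 0 blue, and in both panels the lowest ratios are those of MT1F, MT1G, MT1H down and MT1X down, from 49.7 to 74.6 kb.

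Promoter sequences from RefSeq (GRCh38.p14) were at hand for 3 of the 6 genes, MT1H, MT1X and MT2A. They were searched on both strands for TGCACNC or TGCGCNC, the core of the metal response element to which MTF1 binds, and no match overlapped another. The 250 bases before the start of each gene are shown because they belong to the gene with the highest ratios and to both genes whose probes disagreed, with the matches in capitals, which read as the reverse complement where they lie on the minus strand.
MT2A promoter, chr16:56608334-56608583, plus strand: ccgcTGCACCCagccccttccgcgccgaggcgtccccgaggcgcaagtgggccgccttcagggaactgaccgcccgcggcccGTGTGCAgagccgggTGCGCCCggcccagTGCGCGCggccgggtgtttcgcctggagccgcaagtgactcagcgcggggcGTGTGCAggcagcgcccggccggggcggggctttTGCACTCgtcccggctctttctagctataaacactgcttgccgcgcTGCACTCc
MT1H promoter, chr16:56669564-56669813, plus strand: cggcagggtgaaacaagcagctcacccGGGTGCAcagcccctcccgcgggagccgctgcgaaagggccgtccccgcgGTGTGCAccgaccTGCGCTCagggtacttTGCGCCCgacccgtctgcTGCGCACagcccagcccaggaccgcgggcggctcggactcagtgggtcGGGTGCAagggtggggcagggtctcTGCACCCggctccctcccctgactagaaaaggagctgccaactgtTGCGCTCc
MT1X promoter, chr16:56682220-56682469, plus strand: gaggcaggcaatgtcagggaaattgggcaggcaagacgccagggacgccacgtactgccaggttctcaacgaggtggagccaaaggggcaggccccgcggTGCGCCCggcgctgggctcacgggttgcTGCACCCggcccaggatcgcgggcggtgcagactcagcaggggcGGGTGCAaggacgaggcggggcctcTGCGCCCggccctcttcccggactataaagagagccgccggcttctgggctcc
MT2A held 7 matches, 5 on the plus and 2 on the minus strand, MT1H held 8 (5 and 3) and MT1X held 4 (3 and 1). At least 1 match was present in 8719 of 35116 RefSeq promoters of this length (24.8%), at least 4 in 0.37%, at least 7 in 0.0313% and at least 8 in 0.0171%. MT1H and MT1X each had a plus-strand match 53 bases before the start and a minus-strand match at 78 bases, and MT2A had them at 54 and 88 bases. A match describes the letters only, and the arrays hold no measure of binding.

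Of 6 factors listed as acting on these promoters, NFE2L2 was not well above background on any array by its only probe. Whether that probe detects the transcript was not tested. At 100 μM, 4 of the 5 factors measured were lower, and none of the 4 measured at 10 μM was higher. Under other scalings, up to 2 of the 4 at 10 μM were slightly above 0. MTF1 read 191 in control cells, 133 at 10 μM and 99.2 at 100 μM, with log2 ratios of -0.59 and -0.70 (SD 0.113), and it was lower at both doses under every scaling. NR3C1, the glucocorticoid receptor, read 3672, 3697 and 2403, with ratios of -0.05, whose sign depended on the scaling, and -0.36 (SD 0.064). USF1, a bHLH factor, was the highest of the group at 100 μM at 0.47 (SD 0.266), from a dim signal of 37.5 in control cells and 43.5 at 100 μM. No factor was past 2-fold over control at either dose. The medians were -0.17 at 10 μM and -0.35 at 100 μM, beside -0.03 and 0.09 over all genes.

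SLC30A1, the zinc exporter of the plasma membrane and itself an MTF1 target, read 419 in control cells, 624 at 10 μM and 627 at 100 μM. Its log2 ratio was 0.52 at 10 μM and 0.83 (SD 0.075) at 100 μM, higher at both doses under every scaling. Of 10 genes of the SLC30 family, listed here together as zinc exporters, 6 were well above background both in control cells and at 10 μM. All 6 were higher than control by their brightest probe, with a median of 0.29, beside -0.03 over all genes. A second, dim probe of SLC30A5 was lower at 10 μM (-0.39, SD 0.224), and a second probe of SLC30A7 lay at 0.05 (SD 0.093). Past 2-fold was 1 of the 6 genes, where 3.37% of all genes were. At 100 μM, 6 of 8 were higher, with a median of 0.38, beside 0.09 over all genes. Past 2-fold was 1, where 6.76% of all genes were. Past 2-fold lower were 1.6% of all genes at 10 μM and 3.66% at 100 μM. These shares and medians stand beside the lists that follow as well. SLC30A2 was the highest at 1.03 (SD 0.335) from a dim signal of 24.9, and SLC30A3 was the lowest at -0.50 (SD 0.092) although it had been the highest at 10 μM at 1.08.

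Among the zinc importers, 5 of 12 were higher at 10 μM and 6 of 11 at 100 μM, with medians of -0.05 and 0.04. SLC39A4, which takes up zinc in the intestine, was the highest at 100 μM and read 12350, 16770 and 21170, with log2 ratios of 0.38 and 1.03 (SD 0.063). SLC39A14, an importer of zinc and non-transferrin iron in liver, was the lowest at 100 μM and read 27890, 16730 and 18470, with ratios of -0.80 and -0.35 (SD 0.060). No zinc importer was past 2-fold at 10 μM and 1, SLC39A4, was at 100 μM.

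Copper genes went both ways. Of 14 measured, 6 were higher and 8 lower at each dose by the brightest probe, none was past 2-fold, and the medians were -0.09 and -0.02. A dimmer probe of STEAP3 lay at the edge of 2-fold at 10 μM, at 1.01 (SD 0.101), where its brightest probe gave 0.73. CCS, the copper chaperone for superoxide dismutase, was the highest at 100 μM at 0.98 (SD 0.067), up to 1.04 under other scalings, and SLC31A1, the copper importer, the lowest at -0.44 (SD 0.070). Of 10 iron genes, 3 were higher at 10 μM and 5 at 100 μM, with medians of -0.15 and -0.03. The lowest was HAMP, which encodes the iron hormone hepcidin and was the single iron gene past 2-fold. It read 14750 in control cells, 4280 at 10 μM and 4005 at 100 μM, with log2 ratios of -1.85 and -1.63 (SD 0.065). The highest was SLC40A1, the iron exporter ferroportin, at 0.34 (SD 0.073) at 100 μM.

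Genes that respond to metals or oxidants together with metallothioneins did not move in 1 direction. Of these, 5 of 11 were higher at 10 μM and 7 of 12 at 100 μM, with medians of -0.17 and 0.39. HMOX1, the heme oxygenase, read 6707, 8899 and 11440, with log2 ratios of 0.35 and 1.02 (SD 0.064). The heat shock gene HSPA1A was the highest at 100 μM at 2.61 (SD 0.15) after 1.61 at 10 μM, though its transcript is nearly identical to that of HSPA1B and the probe may read both. SLC7A11, the cystine transporter, was the lowest and read 4579, 1792 and 584, with log2 ratios of -1.42 and -2.72 (SD 0.071). Past 2-fold were 1 gene higher and 1 lower at 10 μM, and 3 higher and 1 lower at 100 μM.

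Of 8 glucocorticoid-responsive genes, 4 were higher at 10 μM and 5 at 100 μM, with medians of -0.01 and 0.17. DUSP1, a phosphatase of MAP kinases, was the highest at 100 μM at 0.92 (SD 0.078). TSC22D3, which encodes the glucocorticoid-induced leucine zipper, was the lowest and read 182 in control cells, 80.8 at 10 μM and 39.6 at 100 μM. Its log2 ratios of -1.23 and -1.95 (SD 0.194) had the stepwise order of MT1G, and it was the single gene of the group past 2-fold.

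Other scalings moved these counts at 100 μM most. The genes higher than control there numbered 5 to 7 of 8 zinc exporters, 3 to 8 of 11 zinc importers, 4 to 10 of 14 copper genes, 1 to 5 of 10 iron genes and 4 to 5 of 8 glucocorticoid-responsive genes, while 7 of 12 genes of metal and oxidant stress were higher under each scaling. The 2-fold calls of SLC30A2 (0.68 to 1.10), SLC39A4 (0.74 to 1.09) and HMOX1 (0.73 to 1.08) at 100 μM ended under some scalings. Calls in the lower direction were gained at 100 μM under some scalings. These were GCLC (-1.149 to -0.796) and TXNRD1 (-1.177 to -0.823) of the stress genes and FKBP5 (-1.113 to -0.759) of the glucocorticoid-responsive genes.

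**Figure D5:**
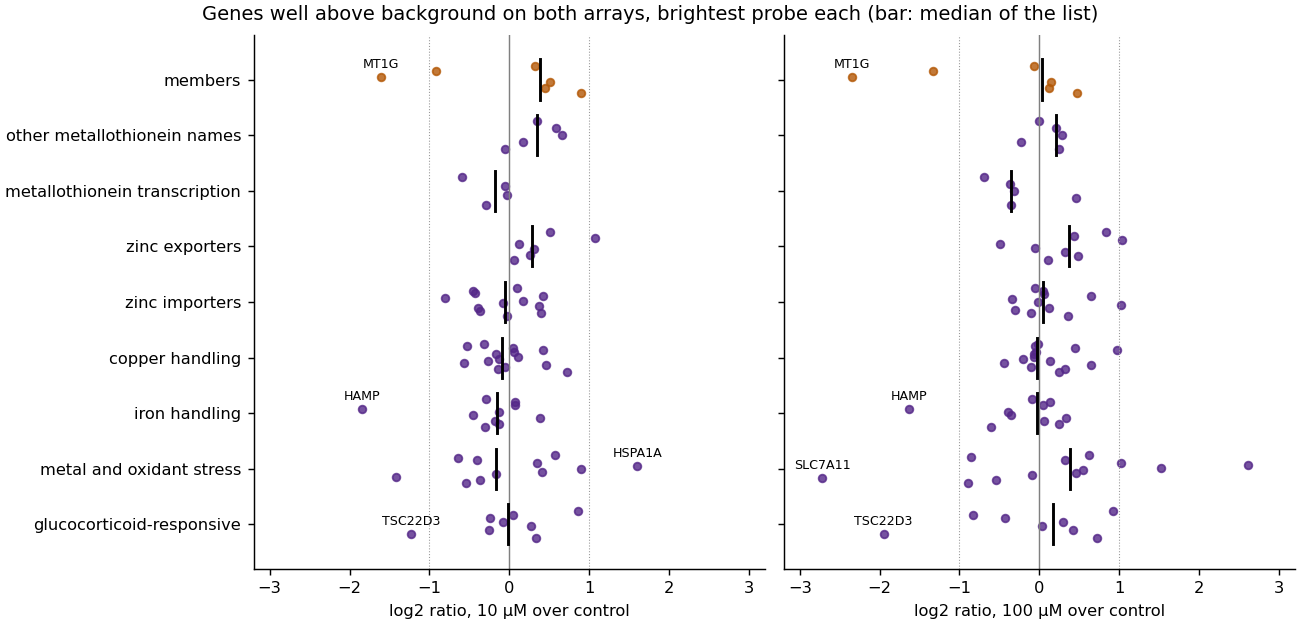
Log2 ratio over control at 10 μM (left) and 100 μM (right) of genes well above background on both arrays, brightest probe each, in the metallothioneins described here ("members"), other metallothioneins and 7 related lists; each point is a gene, black bars are list medians and dotted lines mark 2-fold. The 6 metallothioneins have medians of 0.39 and 0.03 with MT1G at the far left of both panels.

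The genes outside these lists whose pair of ratios was nearest to that of MT1G, among 11962 with a RefSeq mRNA accession and a signal well above background on all 3 arrays, were KLHDC7B (distance 0.42 on the log2 scale), C3orf26 (0.42), BRPF1 (0.46), TUBE1 (0.47) and DRD5 (0.56). The likeness rests on the 2 ratios over the same control array. KLHDC7B, the nearest, read 234 in control cells, 70.7 at 10 μM and 29.8 at 100 μM. Its signal at 100 μM was near the lowest called well above background on that array, 21.6. Its ratio at 100 μM had an SD of 0.236, larger than the differences between the distances, so the order of these genes was not settled.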

How the data were processed

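RNA from HepG2 cells at 0, 10 and 100 μM etoposide was measured on 1 array per condition. The authors deposited the Feature Extraction (version 10.7.3.1) output of each array, whose processed intensity is background-subtracted and not scaled between arrays, with flags for spots well above background. A series table equaled it for all 44495 spots. Agilent's gene names and hg18 probe positions were kept.

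Log2 intensity was averaged over non-outlier spots and set to each array's 75th percentile, each probe counted once. A gene took its brightest probe. A signal not well above background was raised to the lowest one that was. Ratios over 2-fold were counted. The SD between spots came from the 50 nearest of 999 probes spotted 10 times. Steps were tested on simulated data. Python 3.11.15, pandas 2.3.3, numpy 2.4.6, matplotlib 3.10.9, R 4.3.3 and limma 3.58.1 were used.

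The genes and lists were chosen with earlier results of these data known, and counting each probe once followed an earlier analysis. Named were every metallothionein, the highest and lowest gene of each list at 100 μM, MTF1, NR3C1, SLC30A1, HMOX1 and the 5 genes nearest to MT1G; the cell markers were used to check the line. Alternatives were other scalings, normexp, filters, probe rules, outlier handling, the series table and fold thresholds. Promoters came from RefSeq.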

Additional observations from a re-analysis of the deposited data

How the results depend on the processing

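No paired analysis was possible because there is 1 array per condition. Across 13 alternatives, 66 of 234 member values moved by more than the spread between spots. No ratio that was past 2-fold by the brightest probe changed sign. The filters on dim probes and the series table could not move any member value. All member probes were well above background on every array, and the series table equaled the deposited signal. The probe rules could not move MT1E, MT1F, MT1G or MT2A, which have a single probe each. No member probe had an outlier spot, so outlier handling could reach member values only through the scaling. Many of the 234 values were therefore fixed in advance, and the 66 are a larger share of those free to move. The ratios past 2-fold belong to MT1F and MT1G, which have a single probe each, so the probe rules could not change their sign. By the dimmest probe, MT1H at 10 μM over control went from 0.52 to -1.59 and MT1X from 0.45 to -1.02. The median over the 6 genes at 100 μM over control was -0.22 without scaling, -0.26 with median scaling and -0.14 with spike-in scaling, which moved the median over all genes to -0.16, -0.20 and -0.09. For 10 μM over 100 μM the median was 0.71, 0.67 and 0.63 under these and 0.33 with the percentile over all spots, and without scaling 1 gene was past 2-fold higher. Averaging the probes of a gene gave medians of -0.41 at 10 μM and -0.73 at 100 μM, and the dimmest probe gave -0.97 and -1.19, with 3 and 4 genes past 2-fold lower, because MT1H and MT1X then enter by their downstream probes. At 1.5-fold, 1 gene was higher and 2 lower at 10 μM over control and 1 higher at 10 μM over 100 μM. At 3-fold, 1 was lower at 100 μM. Dim probes, MT1H downstream above all, are limited by their closeness to background, and 1 array per condition limits every value.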
